A study of Mus musculus with 6 samples.

Results

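Imprinted genes with roles in growth were examined in JNK-deficient breast tumor cells: *Grb10*, *H19*, *Mest*, *Plagl1*, *Peg3*, *Zim1*, *Peg10*, *Sgce*, *Dlk1* and *Meg3*. They were chosen by symbol, 10 genes of the 37753 entries with values, and all 10 were found, 1 entry each.

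Genomic imprinting is the expression of a gene from only the maternal or only the paternal copy, set by DNA methylation that differs between egg and sperm and is kept through cell division. Many imprinted genes act on fetal and placental growth, paternally expressed ones often promoting it and maternally expressed ones often restraining it, and several are lowered after birth or altered in tumors. Such genes lie in clusters in which a control region governs several neighbors, so that *Peg10* and *Sgce*, *Peg3* and *Zim1*, *Dlk1* and *Meg3*, and *H19* and the growth factor gene *Igf2* are usually described as pairs. The allele that a transcript came from cannot be read from these values, which sum both copies.

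The groups were MEC, primary mammary epithelial cells in 3 preparations, and MEKO, 3 lines of tumor cells, with 1 library each. The MEC carry the genotype label WAPCre+ and were pooled from 3 to 5 virgin females aged 10 to 12 weeks on the C57/Bl6J strain, then grown on collagen I. The MEKO lines, numbered 199, 233 and 336, carry the label Mapk8KO Mapk9KO Cre+, that is, floxed *Mapk8* and *Mapk9* (the JNK1 and JNK2 genes) with the same Cre transgene, and were grown out of tumors of parous mice through 2 passages on collagen before standard dishes. Both groups carry Cre under the whey acidic protein promoter, which lactation switches on in luminal cells. The paper places all of its mice on the strain named above for MEC. The labels give no age for the tumor donors. The paper bred females at 10 to 12 weeks and watched for tumors after weaning, so these donors were older than the MEC females. Each line is 1 tumor. Genotype, age, parity, tumor origin and time in culture differ together between the groups, so their parts cannot be told apart. The targeted genes were lower in every line: *Mapk8* was at 23.1, 25.1 and 19.2 FPKM in MEC and at 5.93, 3.12 and 1.37 FPKM in lines 199, 233 and 336 (adjusted p = 0.0146, limma), and *Mapk9* fell likewise (adjusted p = 0.0122).

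All values are FPKM, fragments scaled by transcript length and by the mapped fragments of the library. No read number accompanies them, so the depth of a library is unknown. The sum of FPKM in a library ran from 557991 to 638365, and libraries were more alike within MEC (Pearson r of log2 values from 0.944 to 0.966 across genes) than within MEKO (0.856 to 0.903). In this bulk RNA, fewer cells of a type and less RNA per cell cannot be told apart. The lines differed in lineage markers. Summed over 5 luminal markers, MEC held 5034 to 8608 FPKM and the lines held 687, 1891 and 1178 FPKM, with 4 of the 5 called lower. The 6 basal markers summed to 1271 to 2211 FPKM in MEC and to 1865, 10.1 and 45.1 FPKM in lines 199, 233 and 336, and 2 of the 6 were called lower. The sum of line 199 hides a split, since *Krt5*, *Krt14* and *Trp63* were above every MEC library there and *Acta2*, *Mylk* and *Oxtr* below every one. Line 199 stood apart for the sum of 8 fibroblast markers, with 1100 FPKM against 117 to 199 FPKM in MEC and 2.42 and 2.02 FPKM in lines 233 and 336. *Col1a1* and *Col1a2* made up most of that sum. Of the 8, 5 were above every MEC library in line 199 and *Dcn*, *Lum* and *Thy1* were below, and *Dcn* was called lower. The 3 pericyte markers summed to 19.2 FPKM in line 199, of which *Pdgfrb* gave 19.01 FPKM while *Rgs5* and *Cspg4* were below every MEC library, to 5.08 to 15.5 FPKM in MEC and to 0.0676 and 2.44 FPKM in the other lines. Leukocyte markers (6) summed to 5.96 to 10.1 FPKM in MEC and to 0.953, 3.08 and 24.9 FPKM in the lines. *Cd3e* was at 0 in every line and at 0.0408, 0.0198 and 0 FPKM in MEC. In line 336 *Cd68* alone gave 23.5 FPKM, and no other leukocyte marker was above the MEC range there. Endothelial markers reached 13.9 FPKM in MEC and 0.430 FPKM in the lines, and muscle markers 5.92 FPKM in MEC and 0.0945 FPKM in the lines. Adipocyte markers reached 0.200 FPKM in MEC and 0.226 FPKM in the lines. *Plin1*, *Myod1* and *Myh3* were at 0 in every library, MEC included. The part of these differences in the values of the imprinted genes was not tested.

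**Figure D1:**
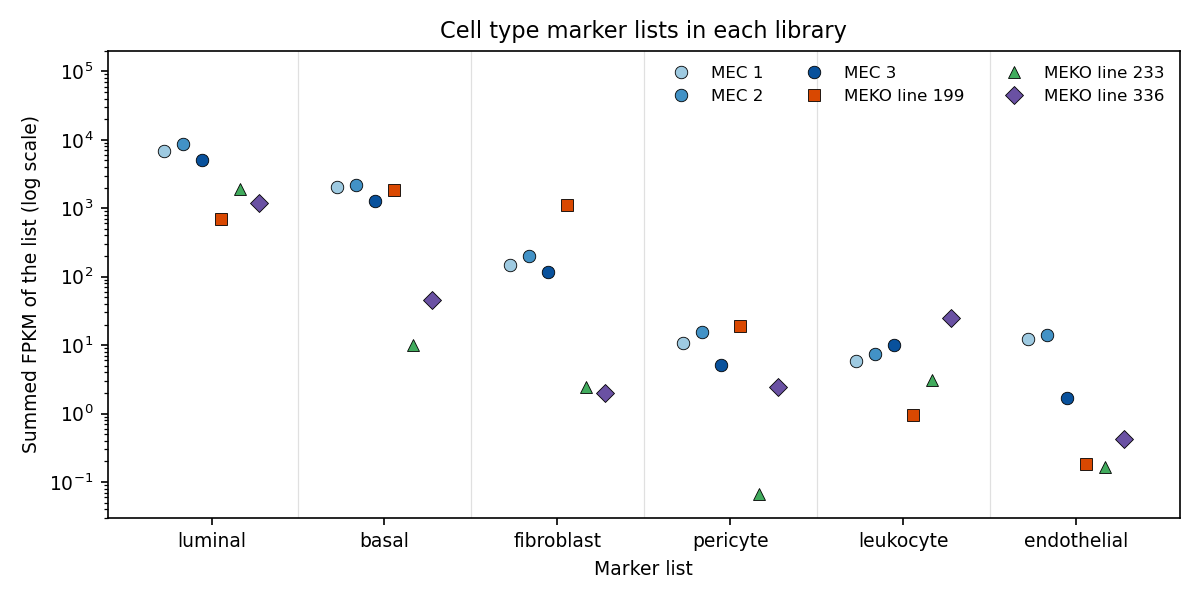
Summed FPKM (log scale) of 6 of the lists of cell type markers in the 3 MEC libraries and the 3 MEKO lines, 1 point a library. The sum of line 199 lies within the MEC range for the basal markers, of which 3 are above and 3 below every MEC library, and above MEC for the fibroblast markers, whereas lines 233 and 336 sit far below MEC for both.

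The start sites of the members that differed most between the groups or between the lines are shown first, since imprinted promoters are often rich in CpG. RefSeq windows on GRCm38.p6, 250 bases before to 50 after each start, were matched for 7 of the 10 genes. The other genes are *H19*, *Peg10* and *Sgce*. The windows were searched on both strands for 4 motifs: the AP1 site TGANTCA, to which the JUN and FOS targets of JNK bind, was in 7.81% of all 32851 windows, the ZFP57 site TGCCGC in 11.6%, the PLAGL1 site GGGGCCC in 6.66% and the YY1 site CCATNTT in 16.1%. None of the member windows held the AP1 letters TGANTCA, and no other site for JUN or FOS proteins was searched. The capitals below mark matches on either strand, and a match is a description of the letters only.
Grb10, chr11:12037371-12037670, minus strand: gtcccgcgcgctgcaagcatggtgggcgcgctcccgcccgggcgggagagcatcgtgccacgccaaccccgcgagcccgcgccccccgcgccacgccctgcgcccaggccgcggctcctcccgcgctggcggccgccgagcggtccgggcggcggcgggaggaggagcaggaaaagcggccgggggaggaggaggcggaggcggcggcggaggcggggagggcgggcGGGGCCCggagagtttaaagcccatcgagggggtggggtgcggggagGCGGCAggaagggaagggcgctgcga
Mest, chr6:30737800-30738099, plus strand: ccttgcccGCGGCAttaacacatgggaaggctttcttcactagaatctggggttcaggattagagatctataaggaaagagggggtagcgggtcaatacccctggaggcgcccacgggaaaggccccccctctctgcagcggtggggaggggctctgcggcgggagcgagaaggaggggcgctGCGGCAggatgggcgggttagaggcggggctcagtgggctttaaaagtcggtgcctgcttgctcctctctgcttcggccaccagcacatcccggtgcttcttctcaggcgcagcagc
Plagl1, chr10:13090582-13090881, plus strand: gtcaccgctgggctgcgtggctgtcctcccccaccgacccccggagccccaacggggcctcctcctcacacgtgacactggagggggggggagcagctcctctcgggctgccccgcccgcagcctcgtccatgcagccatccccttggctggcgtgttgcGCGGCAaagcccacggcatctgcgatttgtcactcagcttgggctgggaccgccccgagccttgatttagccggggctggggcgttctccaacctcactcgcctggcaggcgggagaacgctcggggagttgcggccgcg
Peg3, chr7:6730370-6730669, minus strand: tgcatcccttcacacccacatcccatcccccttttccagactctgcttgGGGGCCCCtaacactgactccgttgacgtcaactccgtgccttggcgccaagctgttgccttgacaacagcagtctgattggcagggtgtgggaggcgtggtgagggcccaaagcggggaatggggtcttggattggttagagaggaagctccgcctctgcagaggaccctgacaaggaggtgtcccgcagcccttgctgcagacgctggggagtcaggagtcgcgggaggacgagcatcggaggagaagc
The *Grb10* window held 45 CpG, more than 98.1% of all windows, whose median was 7, with 1 PLAGL1 match 23 bases before the start (GGGGCCC) and 1 ZFP57 match after it (GCGGCA, the reverse strand of TGCCGC). In the *Mest* window 17 CpG and 2 ZFP57 matches were found, and in the *Plagl1* window 26 CpG and 1 ZFP57 match. The *Peg3* window held 13 CpG and 2 PLAGL1 matches that overlap in GGGGCCCC. Of the remaining windows, the second *Grb10* start (chr11:12027922-12028221) held 1 YY1 match, an upstream *Mest* start (chr6:30733256-30733555) 1 PLAGL1 match, and the *Zim1* and first *Meg3* windows 1 ZFP57 match each, while the *Dlk1* window and the second *Meg3* window held none of the 4 motifs. One more *Mest* window lies 3 bases from the one printed.

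The entry that holds *H19* is joined with *Mir675*, the microRNA cut from the *H19* transcript, so both are read by 1 value. The mature forms are shown for that reason, with the seed (bases 2 to 8) in capitals, on the minus strand of chromosome 7.
mmu-miR-675-5p, chr7:142577112-142577133: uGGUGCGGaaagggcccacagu
mmu-miR-675-3p, chr7:142577078-142577099: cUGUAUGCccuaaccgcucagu
The seeds of the 2 forms differ, and the RNA-seq values do not measure the mature forms.

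The 10 genes were compared between MEKO and MEC. None of the 5 that passed the filter on low values (mean of 1 FPKM or more over the 6 libraries) was called differentially expressed, against 9.9% of the 12461 genes tested (1234 genes, 2.64% higher and 7.26% lower). A call needed an adjusted p under 0.05 in limma and a log2 fold change beyond 0.75 in either direction. With an unadjusted p under 0.05 in limma there were 2 of the 5 members, *Grb10* and *Mest*, and 3509 of the 12461 genes tested. *Mest* passed the filter through its values in the lines, with a mean of 0.779 FPKM in MEC and 3.43 FPKM in MEKO. The 5 tested members, *Grb10*, *Mest*, *Plagl1*, *H19* and *Sgce*, had a median log2 fold change of -0.13, beside 0.01 over all genes. Of all 10, *Grb10*, *Peg3* and *Zim1* were lower in every MEKO line than in every MEC library, a pattern found in 16.7% of the 21813 entries above 0. None of the 10 was higher in every line than in every MEC library. Among the 12461 genes tested, 2305 were higher in this way and 2334 lower.

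The lines differed from one another. In line 199, 4 members lay below every MEC library and 5 above, where 31.4% and 35.3% of all entries above 0 did so. Line 233 had 5 below and 2 above (31.9% and 31.1% of entries), and line 336 had 6 below and 1 above (31.5% and 32.4%). Between the lines the tested members spread widely. The log2 range over the 3 lines was 3.31 for *Grb10*, 2.67 for *Sgce*, 2.49 for *H19*, 2.19 for *Plagl1* and 1.45 for *Mest*, against a median of 0.62 over all tested genes. Between 83.9% (*Mest*) and 96.9% (*Grb10*) of tested genes had a smaller range over the lines. Within MEC the same ranges were 0.88, 0.85, 1.20, 0.36 and 0.99, also above the median of 0.35.

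**Figure D2:**
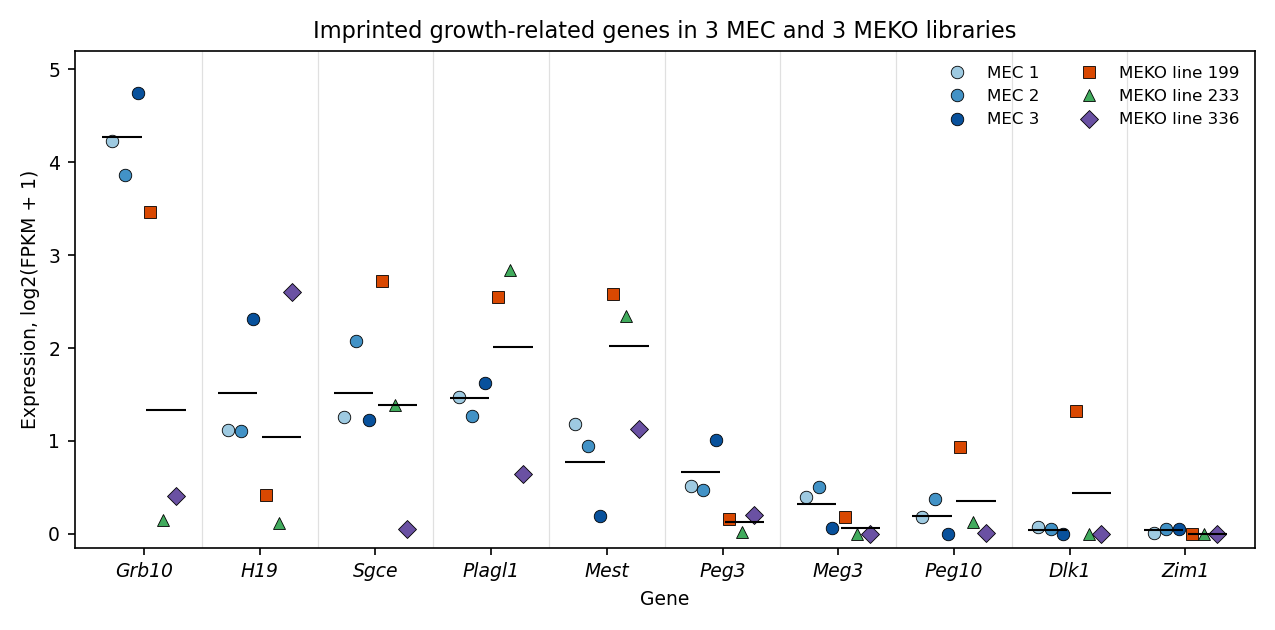
Expression, as log2(FPKM + 1), of the 10 imprinted genes in 3 MEC libraries and 3 MEKO lines, with 1 point a library and a short line at each group's mean. *Grb10* stands above the other members in every MEC library and stands at 0.107 and 0.323 FPKM in lines 233 and 336, and *Dlk1*, *Meg3* and *Zim1* are at or near 0 in most libraries.

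Among the genes of growth signaling, *Grb10* encodes an adaptor that binds the insulin and IGF1 receptors and restrains their signal, and is maternally expressed in most tissues. Its gene lies on chromosome 11 (chr11:11930508-12038683, minus strand, GRCm38, GENCODE M21). It was the member with the highest level in MEC, at 17.7, 13.5 and 25.8 FPKM, and stood at 10.0, 0.107 and 0.323 FPKM in lines 199, 233 and 336. All 3 lines were below the lowest MEC library, line 199 by little and the others by far. Line 199 kept 52.7% of the MEC mean, line 233 0.562% and line 336 1.70%, so the mean of 19.01 ± 6.22 FPKM (SD, n = 3) in MEC stood against 3.48 ± 5.66 FPKM (n = 3) in MEKO. On the log2(FPKM + 1) scale lines 233 and 336 were 4.13 and 3.87 below the MEC mean, where 2.47% and 2.41% of tested genes lay 3 or more below it. Within a library, *Grb10* ranked above 67.5% to 80.2% of entries above 0 in MEC and above 64.3%, 16.3% and 26.2% in the lines.

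The log2 fold change of *Grb10* was -2.94 (SE 0.88, 95% CI -5.05 to -0.83) and its adjusted p was 0.088 in limma. The exact permutation test gave p = 0.1 (two-sided), the smallest that 3 against 3 allows. *Grb10* was thus not called in the main comparison, and its adjusted p depended on line 199. Without that line the log2 fold change was -4.00 with an adjusted p of 0.00251 in limma. Without any other single library the adjusted p was between 0.187 and 0.251. With sample weights the log2 fold change was -3.38 (adjusted p = 0.00848, limma). In that fit MEC 1 had a weight of 13.3, and the other libraries had weights of 0.236 to 2.13. Line 199 is also the line with the highest *Krt5*, *Krt14* and *Trp63* of the basal list. The other basal markers, *Acta2*, *Mylk* and *Oxtr*, were below every MEC library there. The part of these differences in *Grb10* was not tested.

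The tested neighbors of *Grb10* did not have this pattern. *Cobl*, an actin nucleator with imprinted expression, was at 8.44, 8.60 and 10.7 FPKM in MEC and at 10.3, 20.4 and 6.95 FPKM in the lines (log2 fold change 0.29, adjusted p = 0.641, limma). *Fignl1*, a recombination factor, was at 11.1, 13.5 and 5.10 FPKM and at 15.6, 12.4 and 13.7 FPKM (adjusted p = 0.342). *Ikzf1*, a lymphoid transcription factor named here after its values were seen, was under the filter with 1.08, 1.36 and 1.70 FPKM in MEC, 0.0342 FPKM in line 199 and 0 in the other lines, and with every entry above 0 tested its adjusted p was 0.00744. Tested genes on chromosome 11 had a median log2 difference from MEC between -0.03 and 0.04 in the lines (n = 961).

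Partners of *Grb10* in the insulin and IGF pathway were read beside it, and 3 of the 11 tested partners of the members were called, beside 9.9% of all genes. *Irs2*, a docking protein of these receptors, rose from 2.76, 2.60 and 2.43 FPKM to 11.1, 11.0 and 11.4 FPKM (log2 fold change 1.76, adjusted p = 0.00253, limma). It was called under every alternative tried, with no overlap and little spread in either group. *Irs1*, the related docking protein, fell from 9.78, 8.44 and 10.7 FPKM to 3.70, 5.83 and 3.55 FPKM (-1.01, adjusted p = 0.0377), and the receptor gene *Igf1r* rose from 6.59, 6.07 and 5.50 FPKM to 14.3, 10.8 and 12.5 FPKM (0.93, adjusted p = 0.0233). The last 2 calls depended on single libraries, and that of *Irs1* also on the filter (adjusted p = 0.0672 with none and 0.0528 at 5 FPKM, limma). For *Irs1* the adjusted p was 0.158, 0.112 and 0.132 without MEC 1, 2 and 3, and 0.0571 and 0.0885 without lines 199 and 336, and for *Igf1r* it was 0.101, 0.104 and 0.0838 without MEC 1, 2 and 3 and 0.0585 without line 336. The insulin receptor gene *Insr* was not called (-0.47, adjusted p = 0.204). Over the 11 partners the median log2 fold change was -0.38.

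*H19*, a maternally expressed long noncoding RNA (chr7:142575529-142578143, minus strand), was at 1.18, 1.16 and 3.97 FPKM in MEC and at 0.332, 0.0821 and 5.06 FPKM in lines 199, 233 and 336. Lines 199 and 233 lay below every MEC library, at 15.8% and 3.90% of the MEC mean, and line 336 lay above every one, so the groups overlapped. The means were 2.10 ± 1.62 FPKM in MEC and 1.83 ± 2.81 FPKM in MEKO (SD, n = 3 each). The log2 fold change was -0.47 (SE 0.72, 95% CI -2.21 to 1.27, adjusted p = 0.701, limma; exact permutation p = 0.6) and turned to 0.065 with quantile normalization.

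The line with the highest *H19* was also the line with the highest *Igf2*. *Igf2*, a paternally expressed growth factor that lies beside *H19* and shares its enhancers, was at 0.229, 0.713 and 1.10 FPKM in MEC and at 0.823, 1.47 and 529 FPKM in lines 199, 233 and 336. Line 336 was 776-fold above the MEC mean, or 8.33 on the log2(FPKM + 1) scale, and 0.538% of tested genes were 4 or more above it in that line. Lines 199 and 233 were close to MEC, and the group difference was not called (log2 fold change 3.02, SE 2.11, adjusted p = 0.390, limma). *Igf2* passed the filter through line 336, with a mean of 0.682 FPKM in MEC. *Mrpl23*, a mitochondrial ribosomal protein gene beyond *H19*, was at 40.7, 34.5 and 40.6 FPKM in MEC and 23.5, 19.4 and 34.1 FPKM in the lines (adjusted p = 0.147). *Lsp1*, an actin-binding protein gene of leukocytes, was at 5.57, 4.19 and 8.36 FPKM and at 23.3, 3.83 and 6.36 FPKM, highest in line 199 (adjusted p = 0.635). Over the 59 tested genes within 2 Mb of *H19* the median log2 difference from MEC was -0.19, -0.01 and -0.06 in lines 199, 233 and 336.

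*Mest*, a paternally expressed gene for a predicted hydrolase (chr6:30723547-30748465, plus strand), had its highest values in the lines. It was at 1.26, 0.931 and 0.141 FPKM in MEC and at 5.00, 4.10 and 1.19 FPKM in lines 199, 233 and 336. Lines 199 and 233 were 6.42-fold and 5.26-fold above the MEC mean, and line 336, at 1.53-fold, lay just under the highest MEC library. The log2 fold change was 1.25 (SE 0.47, 95% CI 0.12 to 2.38), with an adjusted p of 0.146 in limma and an exact permutation p of 0.2. Quantile normalization gave 1.64 with an adjusted p of 0.0449, and every other setting left it above 0.05. At 23.1% of its exonic bases (912 bases) *Mest* overlaps *Copg2* on the opposite strand, and strand use in counting is not given in the sources used here, so part of the *Mest* value may be read from *Copg2*. *Copg2*, a coat protein gene, was at 20.7, 18.5 and 26.5 FPKM in MEC and at 23.1, 22.8 and 25.7 FPKM in the lines (adjusted p = 0.655, limma). The part of *Copg2* in the *Mest* value was not tested.

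Near *Mest*, the carboxypeptidase gene *Cpa4* was higher in every line than in every MEC library. It was at 0.334, 1.18 and 0.0514 FPKM in MEC and at 3.65, 6.80 and 1.71 FPKM in the lines. Its log2 fold change of 1.67 (SE 0.47) was not called (adjusted p = 0.0737, limma). Like *Mest*, *Cpa4* passed the filter through its values in the lines, with a mean of 0.521 FPKM in MEC and 4.05 FPKM in MEKO. *Cep41*, a centrosomal gene, was at 3.08, 4.34 and 3.17 FPKM and at 3.09, 3.91 and 3.10 FPKM (adjusted p = 0.903). The 26 tested genes within 2 Mb had median log2 differences of 0.17, 0.09 and 0.24 in the lines.

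*Plagl1* encodes a zinc finger transcription factor that halts growth and regulates other imprinted genes, and is paternally expressed (chr10:13060504-13131694, plus strand). It was at 1.78, 1.41 and 2.09 FPKM in MEC and at 4.84, 6.18 and 0.568 FPKM in lines 199, 233 and 336. Lines 199 and 233 were 2.75-fold and 3.51-fold above the MEC mean, while line 336 was at 32.3% of it and below every MEC library. The means were 1.76 ± 0.338 FPKM and 3.86 ± 2.93 FPKM (SD, n = 3 each), and the log2 fold change of 0.56 (SE 0.58, 95% CI -0.84 to 1.95) was not called (adjusted p = 0.559, limma; exact permutation p = 0.4). Without line 336, the only line below MEC, the log2 fold change was 1.24 (adjusted p = 0.0377, limma), which is a description only.

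A neighbor on chromosome 10, *Phactr2*, a phosphatase and actin regulator, followed the same order of lines. It was at 4.71, 4.13 and 5.79 FPKM in MEC and at 7.36, 9.15 and 0.824 FPKM in the lines (log2 fold change -0.12, adjusted p = 0.922, limma), so that line 233 was highest and line 336 lowest for both genes. *Ltv1*, a ribosome assembly factor, was at 27.3, 29.5 and 21.6 FPKM in MEC and at 44.9, 39.7 and 31.7 FPKM in the lines (adjusted p = 0.131). *Sf3b5*, a splicing factor, and *Fuca2*, a fucosidase, had adjusted p of 0.502 and 0.830. The 15 tested genes within 2 Mb of *Plagl1* had median log2 differences of 0.22, 0.24 and 0.17.

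*Peg3* and *Zim1* encode zinc finger proteins, the first paternally and the second maternally expressed, with starts 33981 bases apart on chromosome 7. *Peg3* (chr7:6703892-6730431) was at 0.429, 0.392 and 1.01 FPKM in MEC and at 0.114, 0.0144 and 0.149 FPKM in lines 199, 233 and 336. Every line was below every MEC library, at 18.7%, 2.36% and 24.4% of the MEC mean. The mean was 0.610 ± 0.347 FPKM in MEC and 0.0926 ± 0.0699 FPKM in MEKO (SD, n = 3 each), under the filter, and the log2 difference of -0.54 had an exact permutation p of 0.1. When every entry above 0 was tested its adjusted p was 0.114 in limma. *Zim1* (chr7:6671269-6696450) was at 0.00829, 0.0402 and 0.0346 FPKM in MEC and was listed at 0 in every line (exact permutation p = 0.1). Its MEC values are among the lowest above 0, above 1.06% to 4.90% of entries in their libraries, so this is a difference among the smallest values listed.

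*Sgce*, which encodes epsilon-sarcoglycan of the dystrophin-associated membrane complex, and *Peg10*, derived from a retrotransposon and needed in the placenta, are paternally expressed from starts 99 bases apart on chromosome 6. *Sgce* (chr6:4674350-4747207, minus strand) was at 1.38, 3.21 and 1.33 FPKM in MEC and at 5.60, 1.62 and 0.0351 FPKM in lines 199, 233 and 336. Line 199 was above every MEC library, line 233 within their range and line 336 below them all, at 1.78% of the MEC mean. The log2 fold change was -0.13 (SE 0.68, 95% CI -1.76 to 1.50, adjusted p = 0.919, limma), and its sign was the opposite without MEC 2, without line 336, with quantile normalization and for the ratio of means.

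*Peg10* (chr6:4747306-4760517, plus strand) was at 0.137, 0.300 and 0 FPKM in MEC and at 0.919, 0.0891 and 0.00408 FPKM in the lines. It was again highest in line 199 and lowest of the lines in line 336, the order of *Sgce*, and the groups overlapped (exact permutation p = 0.8). That order rests on low values, all under 1 FPKM. The *Peg10* value in line 336 was above 0.244% of the entries above 0 there. In line 199, where both genes were highest, 5 of the 8 fibroblast markers were also above every MEC library and 3 were below, and their part was not tested. Of the sarcoglycan partners, *Sgcb* was at 9.40, 8.35 and 15.3 FPKM in MEC and at 4.24, 8.66 and 1.23 FPKM in the lines (adjusted p = 0.187, limma).

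Of the 19 tested neighbors of the members 1 was called, beside 9.9% of all genes, in the cluster of *Peg10* and *Sgce*. *Tfpi2*, a secreted protease inhibitor imprinted in the placenta, fell from 9.56, 8.57 and 3.12 FPKM in MEC to 0.170, 0 and 0.0160 FPKM in lines 199, 233 and 336 (log2 fold change -2.82, SE 0.39, adjusted p = 0.0109, limma). Its adjusted p was 0.0569 without MEC 1 and 0.0564 without MEC 2. Of its neighbors, *Casd1*, a sialic acid acetyltransferase gene, was at 8.67, 7.95 and 11.1 FPKM in MEC and 3.28, 9.39 and 5.84 FPKM in the lines (adjusted p = 0.302). *Ppp1r9a* (neurabin) was at 1.27, 0.680 and 2.92 FPKM and at 0.185, 3.09 and 2.00 FPKM, lowest in line 199 where *Sgce* and *Peg10* were highest (adjusted p = 0.990). *Pdk4*, a kinase that inhibits pyruvate dehydrogenase, was at 3.11, 5.89 and 2.70 FPKM in MEC and at 4.28, 12.9 and 67.2 FPKM in the lines (adjusted p = 0.229). *Pon3*, a paraoxonase, was also highest in line 336, at 35.5 FPKM against 8.15 to 11.4 FPKM in MEC, and was not called (adjusted p = 0.385, limma). Without line 199, the only line below MEC, its log2 fold change was 1.41 (adjusted p = 0.0381, limma), a description only. *Pon2* was at 29.6 to 36.1 FPKM in MEC and 25.9 to 32.9 FPKM in the lines (adjusted p = 0.433, limma). The 12 tested genes within 2 Mb had median log2 differences of -0.38, -0.12 and -0.30.

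*Dlk1*, a paternally expressed membrane protein related to Notch ligands, and *Meg3*, a maternally expressed long noncoding RNA, start 88178 bases apart on chromosome 12. *Dlk1* (chr12:109452823-109463336) was at 0.0537, 0.0362 and 0 FPKM in MEC, at 1.50 FPKM in line 199 and listed at 0 in lines 233 and 336. It was thus detected above 1 FPKM in line 199 alone of the 6 libraries. That line had the highest collagen genes of the fibroblast list (*Col1a1*, *Col1a2* and *Col3a1*). *Dcn*, *Lum* and *Thy1* of the same list were below every MEC library there. The part of these differences in *Dlk1* was not tested. The exact permutation p was 1. *Meg3* (chr12:109541001-109571726), in an entry joined with *Mir770* and *Mir1906-1*, was at 0.318, 0.414 and 0.0446 FPKM in MEC, at 0.132 FPKM in line 199 and listed at 0 in the others (exact permutation p = 0.2). The groups overlapped for both genes. Of the neighbors *Wdr25* passed the filter, at 0.979, 1.08 and 1.14 FPKM in MEC and 0.991, 1.13 and 1.51 FPKM in the lines (adjusted p = 0.821, limma). *Rian*, a maternally expressed noncoding RNA of the cluster named after its values were seen, was at 0.431, 0.835 and 0.338 FPKM in MEC and at 0.135, 0.0690 and 0 FPKM in the lines, without overlap.

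**Figure D3:**
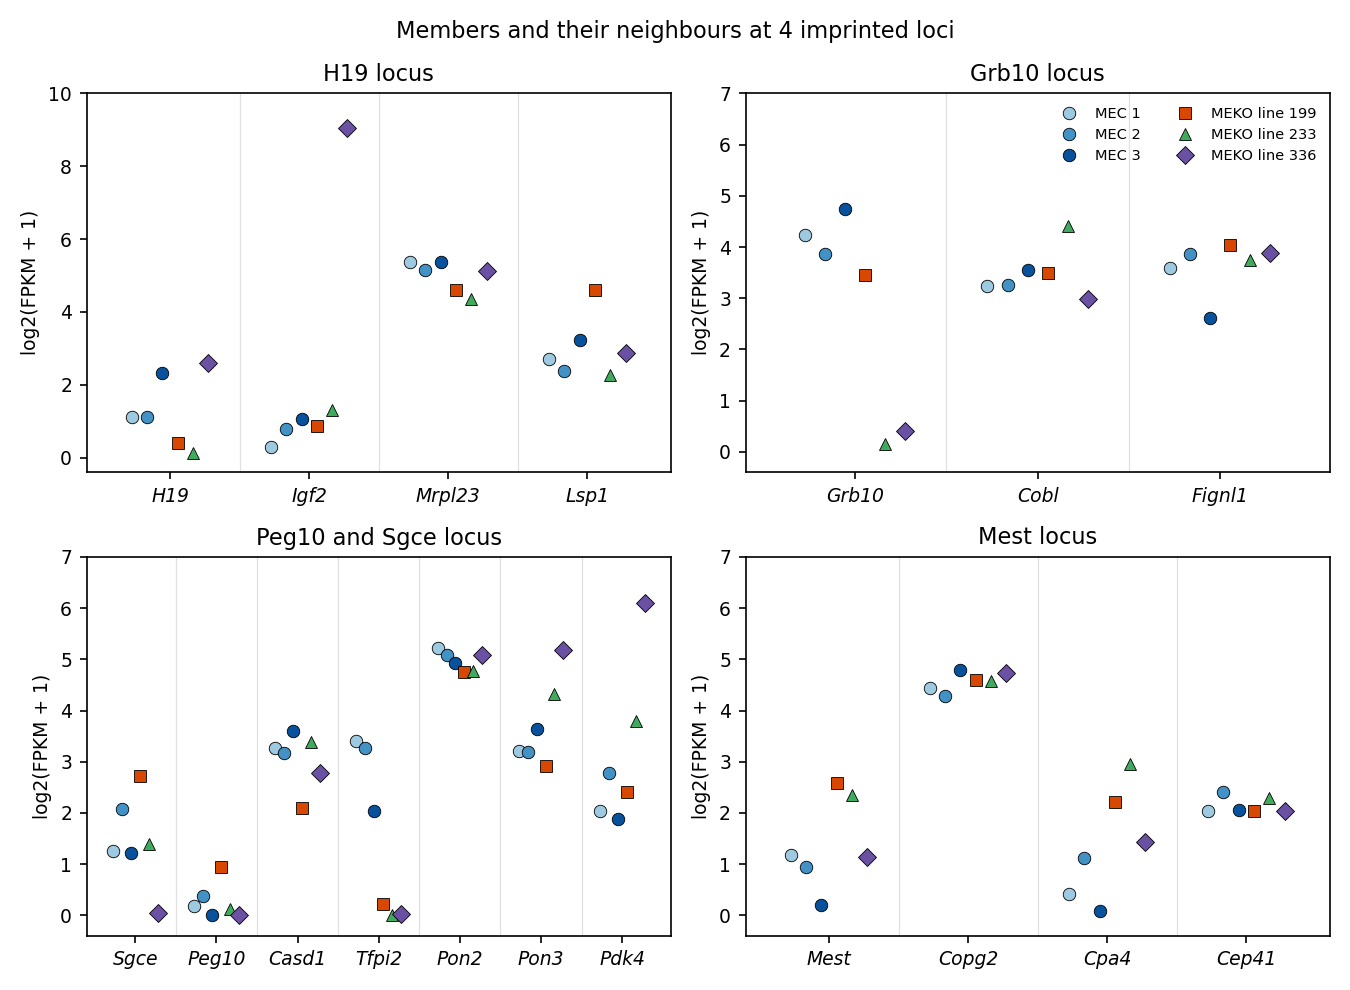
Expression, as log2(FPKM + 1), of members and genes beside them at the *H19*, *Grb10*, *Peg10* and *Sgce*, and *Mest* loci, with 1 point a library. *Igf2* reaches 529 FPKM in line 336 alone, *Tfpi2* lies below the MEC libraries in every line, and *Cobl* and *Fignl1* do not follow *Grb10*.

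Ranked by level, which FPKM allows between genes, *Grb10* was first in every MEC library, its lowest MEC value of 13.5 FPKM being above the highest of any other member (3.97 FPKM for *H19*). *H19*, *Sgce* and *Plagl1*, with MEC means of 2.10, 1.98 and 1.76 FPKM, overlapped one another. *Mest* (0.779 FPKM) came next by its mean. It did not overlap *Plagl1* or *Sgce*, but did overlap *H19* and *Peg3*. In MEKO no such order held. *Grb10* was first in line 199 at 10.0 FPKM, *Plagl1* in line 233 at 6.18 FPKM and *H19* in line 336 at 5.06 FPKM, and the ranges of *Plagl1*, *Grb10*, *Mest*, *Sgce* and *H19* over the lines overlapped.

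**Figure D4:**
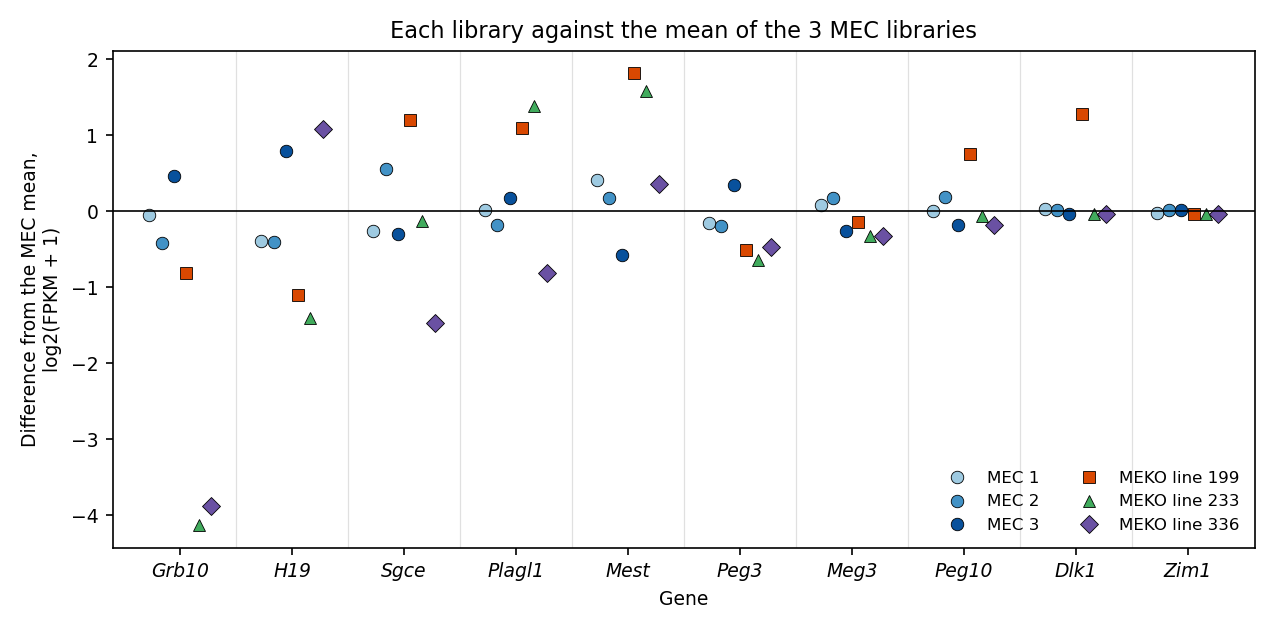
Difference of each MEC library and each MEKO line from the MEC mean, on the log2(FPKM + 1) scale, for the 10 imprinted genes, with 1 point a library. *Grb10* and *Peg3* lie below 0 in all 3 lines, *Mest* above 0 in all 3, and *H19*, *Plagl1* and *Sgce* on both sides.

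The tested gene with the most similar values over the 6 libraries was named for 4 of the tested members, as a description, since it is the best of all tested genes and the points share libraries and a split between groups. It was *Fmnl3* for *Grb10* (Pearson r = 0.998 of log2(FPKM + 1)), *Ahi1* for *Plagl1* (0.996), *Imp3* for *Mest* (0.994) and *Rbm15* for *Sgce* (0.990). *Fmnl3*, a formin, was at 7.64, 6.89 and 11.6 FPKM in MEC and at 6.09, 0.727 and 0.924 FPKM in the lines, the same order of lines as *Grb10*. For *Grb10* 274 tested genes had an r of 0.95 or more, for *Sgce* 20.

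The same comparison was made for other imprinted genes of the mouse. Of 66 listed, 60 were in the table and 35 of their entries were tested, with 0 called higher and 3 called lower, beside 2.64% and 7.26% of all genes. The median log2 fold change was 0.14. Besides *Tfpi2*, *Dcn*, the matrix proteoglycan decorin, fell from 6.62, 5.48 and 3.29 FPKM to 0.311, 0 and 0.366 FPKM (-2.30, SE 0.30, adjusted p = 0.00821, limma), a call that every alternative able to test it gave. *Slc22a18*, a transporter gene of the *Kcnq1* cluster, fell from 3.39, 6.06 and 6.44 FPKM to 0.933, 1.58 and 0.0949 FPKM (-1.80, SE 0.39, adjusted p = 0.0374). That call was lost without MEC 1, 2 and 3 (adjusted p = 0.0827, 0.136 and 0.130) and without lines 199 and 336 (0.0507 and 0.0610). It was also lost with a pseudocount of 0.1 (0.0799), no filter (0.0672), quantile normalization (0.0520) and sample weights (0.0789), in all in 9 of 12 alternatives. With no filter 0 were called higher and 3 lower, beside 225 and 833 over all 21813 entries above 0. There *Rasgrf1*, named after its values were seen, was called instead of *Slc22a18* (adjusted p = 0.0112, limma). It was at 0.786, 1.26 and 1.27 FPKM in MEC and at 0, 0.0875 and 0 FPKM in the lines.

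Of 17 genes that keep or remove imprints, 13 were tested, and 2 were called higher and 0 lower, beside 2.64% and 7.26% of all genes, with a median log2 fold change of 0.12. *Zfp57*, a zinc finger protein that keeps methylation at imprint control regions, rose from 1.58, 1.00 and 0.607 FPKM to 4.34, 3.24 and 3.13 FPKM (1.17, SE 0.26, adjusted p = 0.0400, limma). *Smchd1*, a chromatin protein that acts on the inactive X and at imprinted clusters, rose from 13.3, 14.9 and 10.9 FPKM to 26.0, 20.3 and 30.3 FPKM (0.91, SE 0.20, adjusted p = 0.0416). Neither gene's groups overlapped. Both calls depended on single libraries and on the processing: the adjusted p of *Zfp57* was 0.0814, 0.132 and 0.103 without MEC 1, 2 and 3 and 0.0501, 0.0707 and 0.0643 without lines 199, 233 and 336, and that of *Smchd1* was 0.152, 0.105 and 0.130 without MEC 1, 2 and 3 and 0.0615 and 0.0893 without lines 199 and 336. The *Zfp57* call was also lost with a pseudocount of 0.1 (adjusted p = 0.0505, limma), no filter (0.0673) and sample weights (0.0962), and the *Smchd1* call with no filter (0.0559). The maintenance methyltransferase gene *Dnmt1* was not called (adjusted p = 0.291). *Zfp445* and *Dnmt3a* went the other way from the called genes, lower in every line than in every MEC library. Neither was called (log2 fold change -0.55 and -0.87, adjusted p = 0.0892 and 0.0627, limma).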

How the data were processed

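RNA-seq libraries of 3 MEC preparations and 3 MEKO lines were analysed, with groups from the sample titles. Paired-end reads (150 bp) were trimmed by the authors, who aligned them to mm10 with TopHat2 (2.0.14 per the submitters' processing notes) and deposited Cufflinks (2.2.1) FPKM values, normalized for transcript length and mapped fragments. Strand use is not given in the sources used here. The table has 37755 entries, 2 without values, and 466 join several genes, which one value then describes. Low values rest on few fragments and are the least precise.

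MEKO was compared with MEC in limma 3.58.1 (R 4.3.3) on log2(FPKM + 1), with a mean-variance trend, for the 12461 entries with a mean of at least 1 FPKM, adjusted by the Benjamini-Hochberg method. Fold changes on this log2 scale of the deposited values understate changes of low genes. Calls needed an adjusted p under 0.05 and a log2 fold change beyond 0.75. The filter is on the mean over both groups, so a gene high in a single group can pass it. Confidence intervals are those of limma. Single genes were also compared by a two-sided exact permutation test. The fit was tested on simulated data. Members and lists (other imprinted genes, imprint maintenance, neighbors, partners, cell type markers) were chosen with earlier results of these data known. All members, *Mapk8* and *Mapk9*, called genes of 3 of these lists, tested neighbors and the most similar gene of each tested member were named, except that 1 such gene is not reported here. Others were chosen after their values were seen. Positions are from GENCODE M21 and promoter and microRNA sequences from RefSeq (GRCm38.p6). Alternatives were a pseudocount of 0.1, no filter or one at 5 FPKM, quantile or upper-quartile scaling, no trend, sample weights, no fold threshold, the ratio of means, and each library left out in turn.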

Additional observations from a re-analysis of the deposited data

How the results depend on the processing

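Over all tested genes, 1234 were called, 738 with the filter at 5 FPKM and 1978 with sample weights, and between 300 (without MEC 1) and 1886 (without line 199) with one library left out. Without MEC 2, MEC 3, line 233 and line 336 there were 336, 560, 984 and 902. Of the calls, 26.7% were higher in MEKO, and 37.9% with quantile normalization, which moved the median log2 fold change from 0.01 to 0.10. Of the members 0 were called, 1 with quantile normalization (*Mest*), 1 with sample weights (*Grb10*), and 0 to 1 with a library left out (*Grb10* without line 199, *Plagl1* without line 336). Of the other imprinted genes 3 were called, 0 with the filter at 5 FPKM, which fewer genes pass, and 1 (without MEC 1 or MEC 2) to 4 (without line 233) with a library left out. Of the imprint maintenance genes 2 were called, 1 with a pseudocount of 0.1, 0 with no filter, 1 with the filter at 5 FPKM, 1 with sample weights, and 0 to 1 with a library left out (1 without line 233). *H19* turned to 0.065 with quantile normalization, and *Sgce* to 0.28 with quantile normalization, 0.29 as the log2 ratio of means, and -0.80 (without line 199) to 0.54 (without line 336) with a library left out (0.15 without MEC 2). The cause of these changes was not tested. *Mest*, *Plagl1* and *Grb10* kept their direction under every alternative run, with adjusted p of 0.0449 to 0.343, 0.0377 to 0.900 and 0.00251 to 0.251. Summing over all entries of a symbol changed nothing, since each member is on 1 entry. The 5 members under the filter have no test in the main comparison, and with 3 libraries a group no exact p can be under 0.1. Depth is unknown, so no limit can be set on values listed at 0. No paired analysis was possible because the MEC preparations and the MEKO lines share no replicate numbers.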

Other observations

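Among the other imprinted genes, 4 with values that differed between the lines were chosen after their values were seen, and none was called. *Gatm*, which encodes an enzyme of creatine synthesis, was at 2.45, 1.83 and 1.13 FPKM in MEC and at 11.7, 20.3 and 0.186 FPKM in lines 199, 233 and 336. Its adjusted p was 0.0204 (log2 fold change 2.58, limma) without line 336. *Kcnq1*, a potassium channel gene, was at 2.19, 2.46 and 2.23 FPKM in MEC and at 0.179, 5.54 and 0.0217 FPKM in the lines, with an adjusted p of 0.0161 (-1.58, limma) without line 233. For *Gatm* and *Kcnq1* alike, the line left out was the one on the other side of MEC. Since both genes were chosen after their values were seen, their adjusted p without that line are descriptions only. *Sfmbt2*, a polycomb group gene, was at 0.237, 0.114 and 0.169 FPKM in MEC and at 0.622, 0.747 and 16.7 FPKM in the lines, above every MEC library in each and by far the highest in line 336. *Cdkn1c*, which encodes an inhibitor of cyclin-dependent kinases, was at 0.772, 0.699 and 1.26 FPKM in MEC and at 2.67, 0.706 and 6.57 FPKM in the lines. The log2 range over the lines was 4.17 for *Gatm*, 3.45 for *Sfmbt2* and 2.68 for *Kcnq1*, against 3.31 for *Grb10* and 8.18 for *Igf2*.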
